A study of Mus musculus with 2 samples.

Results

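The genes described here are 59 mouse genes that act in DNA replication or mitosis, a set chosen by function, among the 19674 gene rows of a bulk RNA sequencing count table. A member was kept where its counts summed over both libraries reached 50, a minimum that 13534 genes passed and that defines a measured gene below. All 59 members passed, with sums between 294 for Gins1 and 12976 for Rrm1, so no member was lost to the minimum. By the phase in which their products act, 30 members were classed as S-phase genes and 27 as mitotic genes, while Ccna2 and Mybl2, which serve both phases, stood in neither class.

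The cells were wild-type fibroblasts from mouse skin, a cell line named MDFB, treated with IL-17A, an inflammatory cytokine of T cells, or with vehicle. The labels give both libraries the batch number 1 and state neither a dose nor a duration, nor whether the cells came from separate cultures. Each group had 1 library, of 23559416 counts with IL-17A and 24427027 with vehicle, so no difference below has a replicate check and none has a p-value.

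Dividing cells switch on these genes in waves. In late G1 the activating E2F factors, freed from the Rb protein by cyclin-dependent kinases, turn on genes that load and fire the Mcm helicase and that make deoxynucleotides. Later in the cycle B-Myb and Foxm1, working with the MuvB core that also forms the repressive DREAM complex, turn on the mitotic kinases, kinetochore proteins and spindle motors. Promoters of the first wave typically carry E2F motifs, and those of the second the cell cycle genes homology region, or CHR, often beside CCAAT boxes bound by NF-Y. In skin, dermal fibroblasts divide little at rest and more in culture or during repair.

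Promoters are shown so that the letters of both waves can be read. They belong to the members of each class with the lowest log2 ratio of IL-17A over vehicle, among those in the RefSeq promoter table of GRCm38.p6. Each line runs 5′ to 3′ over 300 bases on the gene's strand, 250 upstream of the annotated start and 50 downstream. Capitals mark a CHR (TTTGAA or TTCGAA), an E2F motif (TTGGCGC or TTCGCGC or TTCCCGC or TTGCCGC) or a CCAAT box (CCAAT), on either strand. The windows are chr11:117825965-117826264 on the minus strand for Tk1, chr17:56303087-56303386 on the plus strand for Uhrf1, chr7:135716330-135716629 on the minus strand for Mki67 and chr9:61946750-61947049 on the minus strand for Kif23.
Tk1: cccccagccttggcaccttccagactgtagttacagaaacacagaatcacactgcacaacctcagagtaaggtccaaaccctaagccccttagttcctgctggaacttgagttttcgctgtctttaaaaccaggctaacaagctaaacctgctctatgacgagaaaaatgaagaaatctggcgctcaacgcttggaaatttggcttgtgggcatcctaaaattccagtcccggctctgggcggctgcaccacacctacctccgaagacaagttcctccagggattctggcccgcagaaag
Uhrf1: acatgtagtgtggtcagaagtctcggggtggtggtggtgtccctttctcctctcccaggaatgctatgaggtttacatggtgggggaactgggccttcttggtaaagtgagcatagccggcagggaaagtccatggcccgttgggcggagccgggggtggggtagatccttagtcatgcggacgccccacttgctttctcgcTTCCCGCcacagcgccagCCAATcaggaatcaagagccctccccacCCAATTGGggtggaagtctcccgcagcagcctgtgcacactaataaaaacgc
Mki67: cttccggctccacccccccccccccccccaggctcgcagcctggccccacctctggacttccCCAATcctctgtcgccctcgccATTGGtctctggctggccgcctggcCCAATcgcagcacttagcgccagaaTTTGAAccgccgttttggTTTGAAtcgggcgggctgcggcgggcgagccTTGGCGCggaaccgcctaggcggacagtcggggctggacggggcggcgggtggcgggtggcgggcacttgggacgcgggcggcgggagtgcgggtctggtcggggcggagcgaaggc
Kif23: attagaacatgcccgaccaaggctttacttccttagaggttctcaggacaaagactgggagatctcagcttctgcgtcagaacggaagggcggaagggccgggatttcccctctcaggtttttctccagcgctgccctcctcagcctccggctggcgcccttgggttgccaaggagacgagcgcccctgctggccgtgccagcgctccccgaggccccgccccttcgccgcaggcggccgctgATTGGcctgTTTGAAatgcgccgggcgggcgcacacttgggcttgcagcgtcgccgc

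The Uhrf1 window held 1 E2F motif and 3 CCAAT matches near the start, 2 of them overlapping on opposite strands, and the Kif23 window held a CHR just past the start with a CCAAT box before it. The Mki67 window held 2 CHRs, 3 CCAAT boxes and 1 E2F motif. None of these exact letters occurred in the Tk1 window, which says nothing of the factors that act there. Across members, 48 had a promoter in the table, and for the 3 with several starts the first listed was used. The others were Cdc25c, Kif20a, Gins1, Aurkb, Pole, Gins2, Foxm1, Ccna2, Tpx2, Mcm4 and Ccne2. A CHR occurred in 16 of 22 mitotic windows (72.7%) and 5 of 25 S-phase windows (20.0%), beside 13.6% of the 9812 windows of measured genes and 19.2% of all windows in the table. E2F motifs showed the opposite split, in 4 mitotic windows (18.2%) and 16 S-phase windows (64.0%), beside 17.4% of measured genes and 9.57% of all windows.

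CCAAT boxes were about as frequent in both classes, in 16 of 22 mitotic windows (72.7%) and 18 of 25 S-phase windows (72.0%), beside 39.2% of measured genes and 37.4% of all windows. A CHR together with a CCAAT box was found in 14 mitotic windows and 5 S-phase windows. In 5 windows of members, letters of different motifs overlapped. Of 25 CHR matches in mitotic windows, 18 began within 100 bases upstream of the start or past it, beside 3 of 6 in S-phase windows. Positions in windows of other measured genes were not counted, so this count has no background share. The Top2a window, named after its matches were seen, held 4 CHRs and 6 CCAAT boxes. These are matches of letters and not mapped binding sites.

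**Figure D1:**
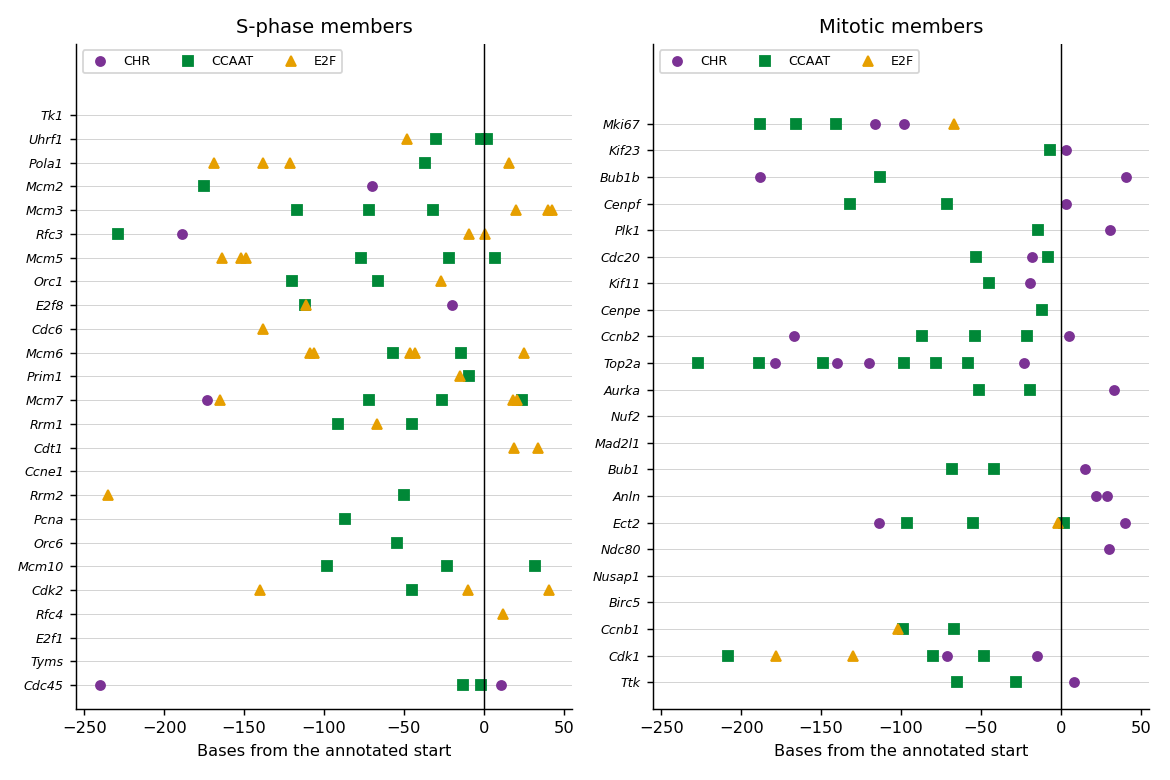
Positions of the first base of CHR, CCAAT and E2F matches on either strand (x axis, bases from the annotated start) in the promoter windows of 25 S-phase and 22 mitotic members, 1 row per gene, ordered by log2 ratio with the lowest at the top. CHR points are more frequent in the mitotic panel and E2F points in the S-phase panel.

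Transcripts of both waves were slightly less abundant in the IL-17A library. Of the 59 members, 58 had a log2 ratio of IL-17A over vehicle below 0, where 49.7% of all measured genes did, and the median of the members was -0.40 against 0.00 for all measured genes. The ratio compares counts scaled by TMM, edgeR's trimmed-mean method, and the interval given with it is the exact 95% Clopper-Pearson counting interval, which covers counting error alone. It lay wholly below 0 for 55 members and spanned 0 for Cdc45, Tyms, Ttk and Rfc4. Under total-count scaling, which lowers every ratio by the same amount, Cdc45 also turned below 0.

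The differences were small and broad. No member was 2-fold higher or lower, limits that 5.19% and 3.69% of measured genes passed. At a smaller limit of 0.32 on the log2 scale, called the small limit below, 44 members were lower, or 74.6%, and 0 were higher, while 17.0% of measured genes were lower and 18.3% higher. Total-count scaling gave 51 members lower and 0 higher, beside 21.1% and 15.2% of measured genes. The members together took 75618 counts, 0.321% of the IL-17A library (95% exact binomial interval 0.319 to 0.323), and 111554 counts, 0.457% of the vehicle library (0.454 to 0.459). Mitotic members took 0.177% with IL-17A and 0.245% with vehicle, and S-phase members 0.132% and 0.195%. Both shares were thus smaller in the IL-17A library. In bulk RNA a smaller share of cycling cells and less transcript per cycling cell cannot be told apart.

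**Figure D2:**
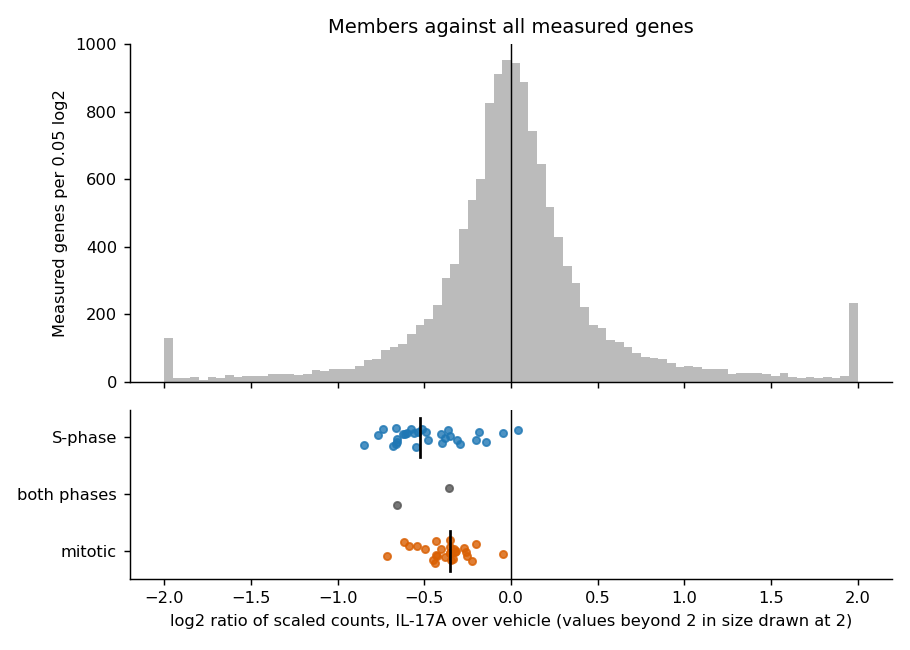
Histogram of the log2 ratio of IL-17A over vehicle for all measured genes (upper panel, y axis in genes) above the single values of the S-phase, both-phase and mitotic members (lower panel, bars at the class medians). Both classes sit in the left shoulder of a distribution centred near 0, and no member passes -1.

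The S-phase members stood lower as a class than the mitotic members, with medians of -0.35 for mitotic and -0.52 for S-phase members, a difference of 0.17 on the log2 scale, mitotic minus S-phase. Their ranges overlapped, from -0.71 to -0.05 for mitotic and -0.85 to 0.04 for S-phase members. Of 27 mitotic members, 23 lay above the S-phase median, and of 30 S-phase members, 22 lay below the mitotic median. From summed counts the classes lay closer together, at -0.40 (-0.42 to -0.38) for mitotic and -0.50 (-0.52 to -0.47) for S-phase members. By step, S-phase medians ran from -0.59 for polymerases and clamp to -0.37 for G1/S regulators, beside -0.43 for the lowest mitotic step. Spread was narrower among the mitotic members, with a standard deviation over genes of 0.14, than among the S-phase members, at 0.22. The 10 lowest members were 8 S-phase genes, Mki67 and Mybl2, whereas the 10 highest were 5 of each class. Genes are not replicates and share both libraries, so the difference of medians was not tested. Past the small limit, 19 mitotic members (70.4%) and 23 S-phase members (76.7%) were lower.

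**Figure D3:**
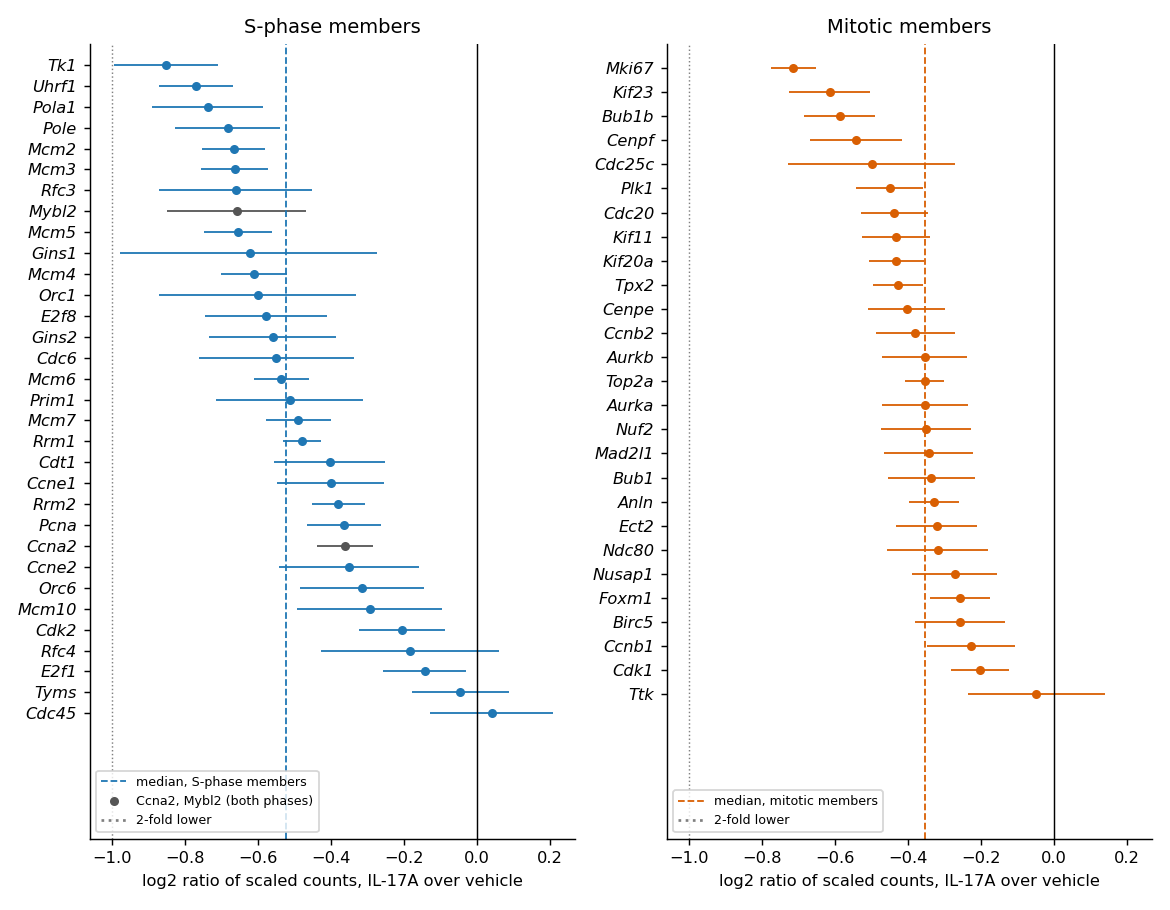
Log2 ratio of IL-17A over vehicle (x axis) for each member (rows), with points at the ratio and bars for the 95% counting interval, S-phase and both-phase members on the left and mitotic members on the right, dashed lines at the class medians of -0.52 and -0.35. The S-phase points run from -0.85 for Tk1 to 0.04 for Cdc45, and most mitotic points bunch around their median.

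Origin licensing, the loading of the Mcm helicase in G1, was among the lowest steps, with a median of -0.57 over 10 genes and 9 of them lower past the small limit. The 6 subunits of the helicase ring, encoded by Mcm2 to Mcm7, stood close together, between -0.67 and -0.49. Mcm2 had 1709 counts with IL-17A and 2946 with vehicle, a log2 ratio of -0.67 (-0.75 to -0.58). Mcm3 had 1545 and 2659 counts in the IL-17A and vehicle libraries (-0.66, -0.75 to -0.57), and Mcm5 had 1484 and 2540 (-0.66, -0.75 to -0.56). Mcm4 followed with 1586 counts in the IL-17A library and 2630 in the vehicle library (-0.61, -0.70 to -0.52), then Mcm6 with 2379 and 3747 (-0.54, -0.61 to -0.46). Mcm7, with 1687 counts under IL-17A and 2573 under vehicle was the highest of the 6 at -0.49 (-0.58 to -0.40). All 6 subunits were lower in the IL-17A library, together 10390 counts against 17095.

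Among the loaders, Orc1, the largest subunit of the origin recognition complex, had 184 counts with IL-17A and 303 with vehicle (-0.60, -0.87 to -0.33). Orc6, its smallest subunit, had 499 and 674 (-0.31, -0.48 to -0.14). Cdc6 and Cdt1, which bring the helicase to the origin complex, stood at -0.55 and -0.40. Both loaders and both Orc members were thus lower, Orc6 least, and the counting intervals of Orc1 and Orc6 overlapped. The Orc subunits outside the members lay nearer to 0. Orc4 stood at -0.25 (-0.38 to -0.13), Orc5 at -0.03, Orc3 at -0.002 and Orc2 at 0.01, and the intervals of Orc2, Orc3 and Orc5 spanned 0. The origin recognition complex was thus not lower in every subunit.

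The factors that start the loaded helicase had a median of -0.43 over 4 genes, and 2 of the 4 were lower past the small limit. Cdc45, the cofactor that joins Mcm2 to Mcm7 in the active helicase, had 565 counts with IL-17A and 597 with vehicle, the only member above 0 at 0.04 (-0.13 to 0.21). It shares 5.96% of its exonic length with Ufd1 on the other strand, which stood at 0.14, and the part of such reads in the Cdc45 value was not tested. The GINS subunits Gins1 and Gins2, which complete that helicase, were at -0.62 (-0.98 to -0.27) from 110 and 184 counts in the IL-17A and vehicle libraries, and at -0.56 from 443 and 709. The start factor Mcm10 was at -0.29. The helicase cofactors thus stood between -0.62 and 0.04.

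Among the members, the polymerase subunits Pola1 and Pole stood lower than the clamp Pcna. Outside the members, subunits of polymerase delta lay nearer to Pcna, with Pold1 at -0.52 (-0.64 to -0.40), Pold2 at -0.50 and Pold3 at -0.35. So did other subunits of polymerases alpha and epsilon, with Prim2 at -0.49, Pola2 at -0.43 and Pole2 at -0.39 (-0.69 to -0.10). Pola1, the catalytic subunit of the primer-making polymerase alpha, had 555 counts with IL-17A and 1005 with vehicle (-0.74, -0.89 to -0.59). Pole, the catalytic subunit of the leading-strand polymerase epsilon, had 624 and 1088 (-0.68, -0.83 to -0.54), and the primase Prim1 was at -0.51. Pcna, the ring that clamps polymerases to DNA, had 1364 counts with IL-17A and 1906 with vehicle (-0.36, -0.46 to -0.26). That interval lay above those of Pola1 and Pole. Subunits of the loader that opens this ring were spread out. Rfc3 was at -0.66 (-0.87 to -0.45) from 301 and 517 counts with IL-17A and vehicle. Rfc4 was at -0.18 (-0.43 to 0.06) from 253 and 312 counts in the same order. Between them, outside the members, lay Rfc5 at -0.57, Rfc2 at -0.31 and Rfc1 at -0.29. Rfc4 shares 12.7% of its exonic length with Eif4a2 on the other strand, which stood at 0.02.

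Deoxynucleotide supply held both the lowest member and one of the highest. Tk1, the thymidine kinase of the salvage pathway, had 606 counts with IL-17A and 1188 with vehicle, 1.80-fold lower (1.63 to 1.99) or -0.85 on the log2 scale. Tyms, thymidylate synthase, which makes the same nucleotide anew, had 881 and 988 counts and a log2 ratio of -0.05 (-0.18 to 0.09). The intervals of these alternative sources of thymidylate did not overlap, with a difference of -0.81 for Tk1 minus Tyms. Tyms transcripts match those of other genes at 95% identity or more over up to 361 bases, and Tk1 matches a pseudogene over 165 bases. The part of such reads in the difference was not tested. Ribonucleotide reductase, which makes deoxynucleotides from ribonucleotides, lay between them. Its large subunit Rrm1 had 5160 counts with IL-17A and 7816 with vehicle (-0.48, -0.53 to -0.43), and its small subunit Rrm2 had 2638 and 3731 (-0.38, -0.45 to -0.31). Per kilobase of the longest protein-coding transcript, the most abundant members were Rrm1 at 56.1 CPM with IL-17A and 78.2 with vehicle, Rrm2 at 52.3 and 68.0, and Top2a at 40.3 and 51.5. That order depends on the length used, since by exonic length of the whole gene Rrm1 ranked 11 and Top2a 10.

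The regulators of S-phase entry had a median of -0.37 and differed among themselves. Uhrf1, which guides maintenance DNA methylation at the replication fork, had 1221 counts with IL-17A and 2262 with vehicle, 1.70-fold lower (1.59 to 1.83). E2f8, an E2F that represses its targets, had 481 and 780 counts (-0.58, -0.74 to -0.41), whereas the activator E2f1 had 1138 and 1366 (-0.14, -0.26 to -0.03). The interval of the repressive E2f8 lay wholly below that of the activating E2f1. Cyclins E1 and E2, which drive the kinase Cdk2 at the start of S phase, stood at -0.40 for Ccne1 and -0.35 for Ccne2, and Cdk2 itself at -0.20 (-0.32 to -0.09). Ccna2, the cyclin of S phase and G2, had 2380 counts with IL-17A and 3320 with vehicle (-0.36), and Mybl2, which encodes B-Myb, had 360 and 617 (-0.66, -0.85 to -0.47).

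**Figure D4:**
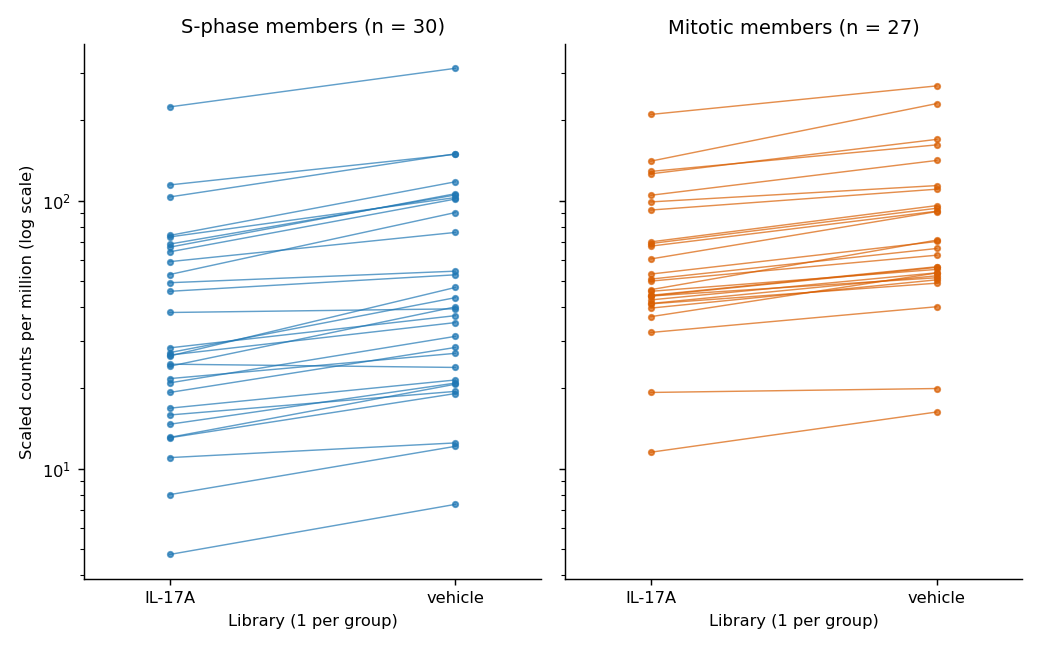
Scaled CPM (y axis, log scale) of each S-phase member (left) and each mitotic member (right) in the IL-17A library and the vehicle library, 1 line per gene and 1 library per group. Lines climb by a similar small step towards vehicle, apart from nearly level ones such as Cdc45, Tyms and Ttk.

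Genes for entry into mitosis had a median of -0.35 over 7 members, 4 of them lower past the small limit. Cdk1, the kinase that starts mitosis, had 2280 counts with IL-17A and 2851 with vehicle (-0.20, -0.28 to -0.12), among the 3 highest mitotic members. Its partner cyclins stood at -0.23 (-0.35 to -0.11) for Ccnb1, from 1015 and 1291 counts, and -0.38 (-0.49 to -0.27) for Ccnb2, from 1174 and 1660. Cdc25c, the phosphatase that activates Cdk1, was at -0.50, and the mitotic kinases Plk1 and Aurka at -0.45 and -0.35. Foxm1, the transcription factor of the mitotic wave, had 2126 counts with IL-17A and 2764 with vehicle, a log2 ratio of -0.26 (-0.34 to -0.18). Cdk1 and Foxm1 thus stood nearer to 0 than the mitotic median.

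Kinetochore and checkpoint genes had the same median, -0.35 over 8 members. Bub1b, the checkpoint protein BubR1, had 1396 counts with IL-17A and 2280 with vehicle (-0.59, -0.68 to -0.49), the third lowest mitotic member. Its paralogue Bub1 had 982 and 1347 (-0.34, -0.46 to -0.22), an interval that did not overlap that of Bub1b. Ttk, the kinase that recruits both to kinetochores, had 443 counts with IL-17A and 498 with vehicle and was the highest mitotic member at -0.05 (-0.24 to 0.14). The microtubule-binding partners Ndc80 and Nuf2 stood side by side at -0.32 and -0.35, Mad2l1, the checkpoint protein Mad2, at -0.34, and the kinetochore proteins Cenpe and Cenpf at -0.40 and -0.54.

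Chromosome and spindle genes stood lowest among the mitotic steps, with a median of -0.43 over 5 members. Mki67, which encodes the proliferation marker Ki-67 on the surface of mitotic chromosomes, had 3237 counts with IL-17A and 5770 with vehicle, 1.64-fold lower (1.57 to 1.71) and the lowest mitotic member. Top2a, the topoisomerase that untangles chromosomes, had 4836 and 6718 counts (-0.35, -0.41 to -0.30). The intervals of Mki67 and Top2a, a pair often used as markers of cycling cells, did not overlap. The spindle motor Kif11 and the spindle assembly factor Tpx2 were both at -0.43, and the microtubule-binding Nusap1 at -0.27.

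Genes of mitotic exit and cytokinesis had a median of -0.35 over 7 members. Kif23, a kinesin of the central spindle, had 1072 counts with IL-17A and 1784 with vehicle, 1.53-fold lower (1.42 to 1.65). The other central-spindle kinesin Kif20a was at -0.43 (-0.51 to -0.36), from 2414 and 3539 counts, and Cdc20, which activates the anaphase-promoting complex, at -0.44. Anln and Ect2, which build and trigger the contractile ring, stood at -0.33 and -0.32. Aurkb and Birc5, the kinase aurora B and its partner survivin, were at -0.35 and -0.26. Every gene of this step was lower in the IL-17A library, and Kif23 lay farthest from 0.

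Some members share sequence with other genes. In GENCODE vM21, exons of 12 members overlap a gene on the opposite strand over at least 5% of their length, among them Gins2 with Gse1 (67.3%) and Kif20a with Cdc23 (29.3%), and Gse1 and Cdc23 stood at 0.09 and -0.20. The library kit keeps strand, but the strand setting of the counting is not given in the sources used here. A further set of 6 members, Ccnb1, Cdc6, Mcm7, Mybl2, Pcna and Uhrf1, of which Mcm7 also has such an overlap, match a pseudogene transcript over at least 500 bases at 95% identity or more, so their counts are uncertain. Without these 17 genes, 42 members had a median of -0.40 and all 42 lay below 0, with medians of -0.35 for 23 mitotic and -0.54 for 19 S-phase members.

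The ratio varied little with level or length. Over the 59 members the Spearman correlation of the log2 ratio with the summed CPM of both libraries was -0.05 and with transcript length -0.14, and with CPM over 13531 measured genes with counts in both it was 0.09, as descriptions of the same pair of libraries. Split by promoter letters, the 20 members with an E2F motif had a median log2 ratio of -0.52 and the 28 without one -0.35. The 21 members with a CHR had a median of -0.43 and the 27 without one -0.40. For the CCAAT box the medians were -0.44 over 34 members with one and -0.34 over 14 without. Since 16 of the 20 windows with an E2F motif belonged to S-phase members, that motif and the class largely went together. The parts of the motifs and the class in the ratio were not separated or tested.

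Further genes of the same processes stood in the same range. Of 45 other replication and S-phase genes, all measured, 32 were lower past the small limit and 0 higher, with a median of -0.48. The lowest were Brca2, a homologous recombination protein, with 151 counts under IL-17A and 322 under vehicle (-0.97, -1.26 to -0.69), the replication fork factor Timeless at -0.88 and Dtl, which targets Cdt1 for destruction, at -0.80. Gmnn, the inhibitor of Cdt1, was at -0.21 (-0.42 to 0.01). Of 62 other mitotic genes, 37 were lower by that limit and 1 was higher, with a median of -0.35. Cenpn, a centromere protein, had 315 and 594 counts (-0.79), and the condensin subunit Ncaph and the kinase Melk stood at -0.72 and -0.69. The 1 higher gene, Zwint, a kinetochore protein named after its value was seen, had 2770 counts with IL-17A and 2122 with vehicle (0.50). These lists repeated the order of the 2 classes within the same libraries and are not a replicate of it.

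The lists of E2F, Rb and DREAM genes and of ubiquitin ligase genes, which control or dismantle the programme, were centred near 0. Among 16 genes of the E2F, Rb and DREAM families the median was 0.05, with 2 lower past the small limit and 0 higher. This list leaves out E2f1 (-0.14), E2f8 (-0.58) and Mybl2 (-0.66), which are related but were counted as members. The repressor E2f7 had 387 counts with IL-17A and 640 with vehicle (-0.61, -0.79 to -0.42), the Rb relative Rbl1 stood at -0.46, the MuvB subunit Lin54 at -0.31 and Rb1 at 0.24 (0.04 to 0.44). Among 20 genes of the APC/C and SCF ubiquitin ligases, which destroy cyclins, the median was -0.04, with 1 lower and 1 higher. The cullin Cul1 was at 0.65, the APC/C subunit Anapc15 at -0.33 and the SCF receptor Btrc at 0.31. A list of 12 reference genes had a median of 0.09, with 0 lower and 2 higher, with Tfrc at 0.56, Gusb at 0.38 and Polr2a at -0.26 farthest from 0.

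Upstream of both waves, G1 cyclins, Cdk4, Cdk6 and the Cdk inhibitors included 2 of 12 genes at least 2-fold lower and 0 higher, and all 12 lay below 0 with a median of -0.45. Cdkn1c, the inhibitor p57, had 443 counts with IL-17A and 1772 with vehicle (-1.88, -2.03 to -1.73), and Ccnd1, cyclin D1, had 1848 and 7029 (-1.81, -1.88 to -1.73). Both an inhibitor and an activator of G1 kinases thus stood lowest. The inhibitor Cdkn2c was at -0.92, Cdkn1a, the inhibitor p21, at -0.01 (-0.07 to 0.04) and Cdkn1b, the inhibitor p27, at -0.15.

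**Figure D5:**
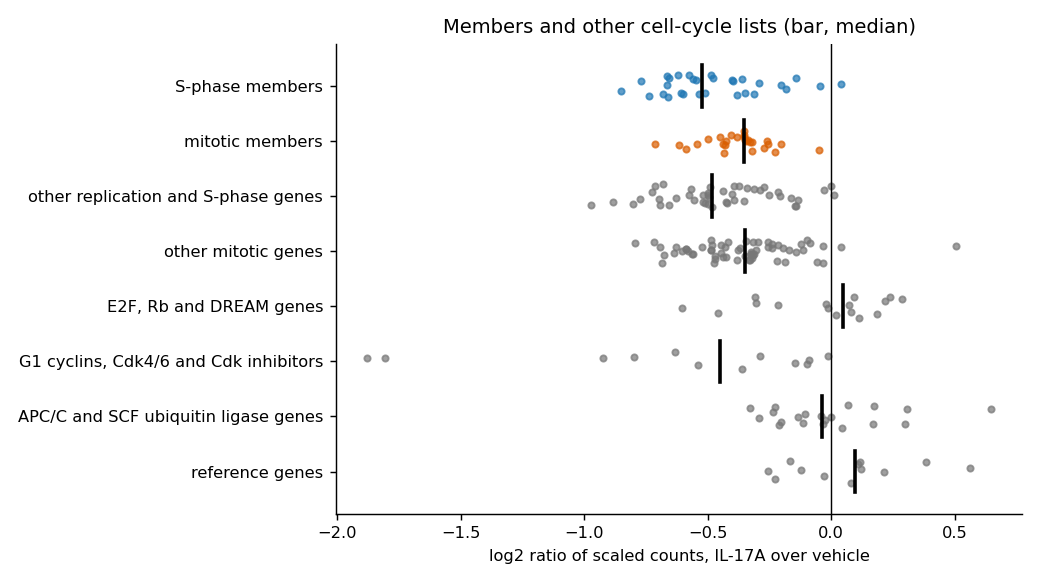
Log2 ratio of IL-17A over vehicle (x axis) of each measured gene (points) in the 2 classes of members and 6 other lists (rows), with bars at the medians. The replication and mitosis rows lie left of 0, the rows of E2F, Rb and DREAM, ubiquitin ligase and reference genes near 0, and Cdkn1c and Ccnd1 are the points beyond -1.

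All 10 fibroblast markers examined were measured, summed to 42674 CPM with IL-17A and 56641 with vehicle, with Dcn at 2.62, Twist2 at 1.15 and Col3a1 at -0.82 farthest from 0 on the log2 ratio. Markers of other cell types summed to far less. Lyz2 alone, however, had 227 CPM with IL-17A and 153 with vehicle, beside 224 and 313 for Rrm1, the member with the most counts. Of 9 macrophage and leukocyte markers, 6 were measured, and the list summed to 267 CPM with IL-17A and 195 with vehicle, mostly from Lyz2, while Csf1r had 402 and 408 counts and Cd3e had 0 in both, which allows up to 3 counts. Keratinocyte markers summed to 3.39 and 2.52 CPM with Krt1 at 0, endothelial markers to 5.35 and 5.80, and melanocyte and Schwann markers to 13.1 and 12.1 with Tyr at 0, with IL-17A and vehicle in that order. Among those measured were Itgam at 0.96, Lyz2 at 0.57 and Cd68 at -0.56 for leukocytes, Tek at -1.32 and Cdh5 at 0.63 for endothelium, Sox10 at -0.05 for melanocytes and Schwann cells, and Krt10 at 0.07 for keratinocytes, all log2 ratios. The part of these cell types in the members' values was not tested.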

How the data were processed

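Total RNA was extracted with a PureLink kit and made into stranded mRNA libraries, per the labels' protocols. The authors deposited raw read counts per gene symbol, 1 column per library, and STAR, featureCounts and mm10 are named in the submitters' processing notes. Not given in the sources used here were versions, annotation, strand setting and the handling of multi-mapped reads. With 1 library per group, edgeR's quasi-likelihood test and DESeq2 leave no residual degrees of freedom, so the result is a ratio of counts scaled by TMM (edgeR 4.0.16, R 4.3.3) over all genes with at least 50 summed counts. Intervals are exact 95% Clopper-Pearson intervals of each gene's split of counts between the libraries (scipy 1.17.1). Reads are not independent molecules, so intervals and the floor of 3 counts cover counting error only. The calculation was tested on simulated data. Lengths and overlaps came from GENCODE vM21, which is on the same assembly as mm10, and promoters from RefSeq.

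The members, classes, gene lists and limits were chosen with earlier results of these data known. Named genes were members past 2-fold, the 3 highest and lowest of each class, the 3 most abundant per kilobase and Mcm2 to Mcm7. Of each other list they were the 3 largest absolute log2 ratios, with Ccnd1, Cdkn1a, Cdkn1b, Rb1, E2f7 and Gmnn always. Subunits of the origin complex, polymerases and clamp loader from outside the members were named beyond this rule, with their values known. Cd79a was not analysed here. The value of 1 marker that the naming rule would give is not reported here. Alternatives were 3 other scalings, centring, 3 minimums, a prior count, other class borders and other limits.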

Additional observations from a re-analysis of the deposited data

How the results depend on the processing

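Other scalings and centring shift all members alike and the other minimums keep every member, so none of these can change the difference of medians, mitotic minus S-phase. With a prior count, with other class borders and without members with an overlap or copy, an alternative chosen after seeing the data, it lay between 0.17 and 0.18. The S-phase median ranged from -0.59 to -0.52 and the mitotic median from -0.42 to -0.35 over all alternatives run, each lowest under total-count scaling, which moved the median of all measured genes to -0.07. No member passed 2-fold under any other scaling or the prior count, and at 1.5-fold 15 members were lower, beside 8.25% of measured genes. The count lower by at least 0.32 on the log2 scale lay between 44 and 51 over the scalings, centring and prior count, was 31 of 42 without members with an overlap or copy, and 56 at 1.1-fold, beside 31.3% of genes. Under other scalings, centring and the prior count, 3 values of single members left their counting interval, those of Rrm1, Mki67 and Top2a under total-count scaling, which stood further below 0. No library could be left out. No paired analysis was possible because each group has 1 library. Depth limits Gins1 most, at 110 counts with IL-17A and 184 with vehicle, and variation between cultures cannot be estimated at any depth.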
